A study of Mus musculus with 8 samples.

Results

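Fatty acid oxidation was compared between small intestinal (SI) and colonic (COL) crypts through 9 genes: the nuclear receptor gene Ppara and 8 genes of fatty acid use that are known targets of its product or steps of the pathway, Acsl5, Cpt1a, Acadl, Acadm, Hadha, Ehhadh, Pdk4 and Plin2. They were chosen by name and matched by Ensembl identifier, and all 9 were found among the 45706 genes of the count tables and among the 14491 genes that passed the filter on low counts, with at least 46 counts in every library. Crypts, small glands at the base of the intestinal lining, hold its stem and progenitor cells. Total RNA was sequenced from crypts freshly isolated with EDTA, a chelator that loosens the epithelium, from 4 wild-type C57BL/6N mice. The study's crypt isolation protocol, given for organoid culture, differs by tissue. It takes the proximal part of the small intestine and scrapes off the villi first. Colon is placed in more concentrated EDTA for longer, and no scraping is described for it. Tissue and preparation therefore cannot be told apart. No mouse carried an engineered allele or was treated, and their age is not given in the sources used here. Each mouse gave 1 SI and 1 COL library, named here SI1 to SI4 and COL1 to COL4. The labels number the donors 1, 2, 3 and 5, so that SI4 and COL4 came from donor mouse 5. Donors 1 and 5 were female and donors 2 and 3 male.

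Long-chain fatty acids are joined to coenzyme A in the cytosol before they can be burned or stored. Carnitine palmitoyltransferase then passes them into mitochondria, where acyl-CoA dehydrogenases of different chain-length preference and the trifunctional protein shorten them step by step, and a separate set of enzymes shortens very long chains in peroxisomes. PPAR-alpha, the product of Ppara, is a lipid-activated transcription factor that binds DNA together with a retinoid X receptor and switches on many of these genes. In the intestine, enterocytes of the small bowel absorb dietary fat and re-esterify most of it for export, whereas colonocytes are known to burn short-chain fatty acids made by gut bacteria.

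Of the 9 genes, Acsl5, Ehhadh, Acadm and Pdk4 were higher in SI crypts and none was higher in COL crypts at an adjusted p below 0.05 (quasi-likelihood test of edgeR, adjusted by the Benjamini-Hochberg method). The differences ran from 77.0-fold for Acsl5 through 7.10-fold for Ehhadh to 3.77-fold for Pdk4 and 2.2-fold for Acadm. The carnitine palmitoyltransferase gene Cpt1a lay the other way in all 4 mice, with a log2 fold change of -1.15 that missed the threshold in this fit and passed it when the donor mouse was a block. Ppara itself, Hadha, Acadl and Plin2 did not pass in either fit. Among all genes tested, 28.4% passed, 15.5% as higher in SI and 12.9% as higher in COL, so that 4 of 9 is a larger share than the background, on few genes. Under scaling by library size alone the split over all genes changed from 2253 higher in SI and 1863 higher in COL to 1115 and 4788, and the split of the 9 genes changed from 4 and 0 to 2 and 2.

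The libraries held 15969428 to 32908060 counts, and no pair within a tissue agreed within sampling noise. The share of counts on the mitochondrial chromosome took 2 levels that cut across the tissues. It was low, 4.83% to 7.35%, in 2 libraries of each tissue (SI1 and SI4, COL3 and COL4) and high, 22.7% to 50.8%, in the others. Donors 2 and 5 gave SI and COL libraries of the same level. Donor 1 gave a low SI and a high COL library, and donor 3 a high SI and a low COL library. Differences within donors 1 and 3, also in fits with a donor block, thus set unlike shares side by side. Values are given as CPM, read counts scaled to a common library size with factors from the trimmed mean of M-values (TMM), and log2 fold changes are SI over COL. The 10 villus enterocyte markers were all higher in SI, with a sum of 53430 to 120500 CPM in SI and of 98.9 to 365.5 CPM in COL. Of the 7 colonocyte markers, 4 were higher in COL (Car1, Car4, Aqp8 and Aqp4) and Slc26a3, Ms4a8a and Slc37a2 did not pass. Their sum, 583.2 to 999.7 CPM in SI and 4907 to 32350 CPM in COL, was carried in COL by Car1. Markers of differentiated cells were thus part of what was sequenced. In such bulk samples, fewer cells of a type and less RNA per cell cannot be told apart.

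Promoter letters are shown for 5 of the genes, Acsl5 and Ehhadh because they differed most between the tissues, and Cpt1a, Acadm and Plin2 because they hold the motif searched for. PPAR-alpha with its partner binds direct repeats of AGGTCA spaced by 1 base. All 9 genes matched 1 RefSeq promoter window each (GRCm38.p6, 250 bases before to 50 after the transcription start), and both strands were searched. The stretches below are the 250 bases before the start, written 5′ to 3′ in the sense of the gene, at chr19:55253119-55253368 (plus strand) for Acsl5, chr16:21787835-21788084 (minus strand) for Ehhadh, chr19:3323051-3323300 (plus strand) for Cpt1a, chr3:153944644-153944893 (minus strand) for Acadm and chr4:86670060-86670309 (minus strand) for Plin2. Capitals mark AGGTCA or its reverse complement TGACCT and, in Plin2, the whole direct repeat.
Acsl5: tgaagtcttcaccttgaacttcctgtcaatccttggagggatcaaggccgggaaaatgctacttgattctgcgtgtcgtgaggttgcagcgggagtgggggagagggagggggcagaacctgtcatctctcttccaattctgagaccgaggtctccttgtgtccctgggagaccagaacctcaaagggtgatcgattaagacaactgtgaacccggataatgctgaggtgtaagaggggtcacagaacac
Ehhadh: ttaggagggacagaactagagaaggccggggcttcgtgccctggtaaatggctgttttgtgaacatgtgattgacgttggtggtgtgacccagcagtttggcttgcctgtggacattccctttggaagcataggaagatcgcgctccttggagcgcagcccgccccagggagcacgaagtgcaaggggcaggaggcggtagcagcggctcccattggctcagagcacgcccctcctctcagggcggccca
Cpt1a: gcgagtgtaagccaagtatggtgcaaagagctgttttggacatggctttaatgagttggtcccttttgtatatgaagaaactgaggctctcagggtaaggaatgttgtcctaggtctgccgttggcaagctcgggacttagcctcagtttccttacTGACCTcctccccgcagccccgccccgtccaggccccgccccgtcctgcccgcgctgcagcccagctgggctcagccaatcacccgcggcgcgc
Acadm: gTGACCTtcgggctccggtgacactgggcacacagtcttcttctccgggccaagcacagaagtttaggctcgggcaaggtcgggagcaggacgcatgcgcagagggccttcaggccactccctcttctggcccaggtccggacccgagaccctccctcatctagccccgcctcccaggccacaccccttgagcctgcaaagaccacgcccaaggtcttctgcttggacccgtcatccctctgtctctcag
Plin2: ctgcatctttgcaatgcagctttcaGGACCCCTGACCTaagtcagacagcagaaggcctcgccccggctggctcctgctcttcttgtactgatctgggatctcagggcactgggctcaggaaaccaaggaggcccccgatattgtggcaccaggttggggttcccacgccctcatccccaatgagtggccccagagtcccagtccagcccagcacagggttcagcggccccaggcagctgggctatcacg
AGGTCA or its reverse complement lay in 3 of the 9 windows, those of Cpt1a (position -94), Acadm (-249) and Plin2 (-218), counted from the start to the first base of the match, against 16.3% of all 32851 windows of the same length. A direct repeat with up to 2 mismatches in its 12 letters lay only in the Plin2 window, against 3.86% of all windows. It read GGACCCCTGACCT, its first base lay at -225, and its second hexamer is the match at -218. Of the 3 genes with a match, 1 was higher in SI and 2 did not pass the test. A match of letters is a description of the window and not a measured binding site. The windows of Acsl5, Cpt1a and Ppara lie inside the GENCODE vM21 models of these genes, which begin further upstream.

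**Figure D1:**
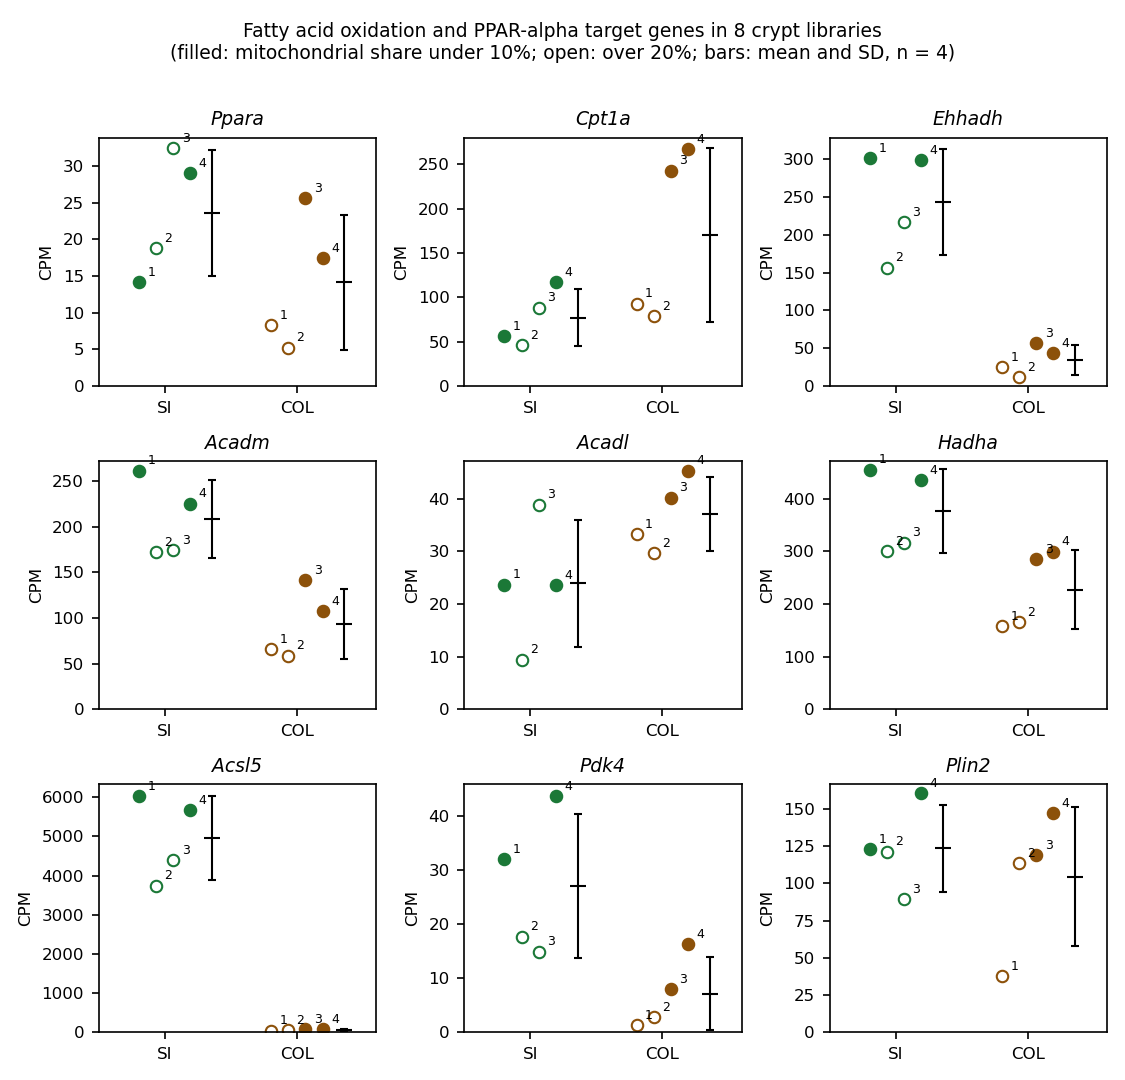
CPM of each of the 9 genes (y axis, linear and starting at 0, with its own scale in each panel) in the 4 SI (green) and 4 COL (brown) libraries, numbered 1 to 4, with the mean and SD (n = 4) in black. Filled points are libraries with a mitochondrial share under 10% and open points those over 20%. Acsl5, Ehhadh, Acadm and Hadha show no overlap between the tissues, and in COL both filled points lie above both open points for all 9 genes.

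Ppara (ENSMUSG00000022383, GRCm38 chr15:85734983-85802819, plus strand) stood at 14.2, 18.8, 32.4 and 29.0 CPM in SI1 to SI4 and at 8.30, 5.22, 25.6 and 17.5 CPM in COL1 to COL4. The tissues overlapped, COL3 lying above SI1 and SI2, although SI was the higher library in each of the 4 mice. EdgeR's test gave a log2 fold change of 0.74 ± 0.47 (SE; adjusted p = 0.272), or 0.91 (adjusted p = 0.0627) when the donor mouse was a block. Where mitochondrial share was low, mean log2 CPM differed by -0.06 between SI and COL (2 libraries each), and where it was high by 1.90. The 95% interval of the difference reached from -0.29 to 1.77. Per length, the receptor was the highest of the 3 PPAR genes in SI with 6.16 ± 2.23 (SD, n = 4) CPM per kb of exon and the lowest in COL with 3.69 ± 2.41, but in SI its neighbours Pparg (4.96) and Ppard (4.28) lay within 1 SD of it. Divided by the longest transcript instead, Ppard (8.62) lay above Ppara (6.92) in SI, so that the order and the shares of these 3 genes depend on the length used.

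Pparg, the relative best known from fat cells and also present in colonic epithelium, was higher in COL, with 34.4 to 97.4 CPM against 6.71 to 22.8 CPM in SI, a log2 fold change of -1.93 ± 0.43 and an adjusted p of 0.00569 in edgeR's test. Among the 4 libraries of high mitochondrial share alone, 2 of each tissue, Pparg did not pass the test. Its mean log2 CPM there still differed by -1.57 between SI and COL. In that smaller fit 2264 genes passed instead of 4116, so a call lost in it, here or below, is not by itself a sign of dependence on the share. Ppard, the most widely expressed of the family, had a log2 fold change of -0.56 ± 0.31 and an adjusted p of 0.211. Pparg thus made up 32.2% of the summed PPAR level per length in SI and 65.4% in COL, while Ppara made up 40.0% and 12.8%. Of 16 tested receptors and partners, 25.0% passed, under the 28.4% of all genes tested. Higher in SI were 3 and in COL 1, Pparg, with a median log2 fold change of 0.26 over the list against -0.09 over all genes tested. The 3 were Rxra, the retinoid X receptor that pairs with PPAR-alpha (1.18 ± 0.24, adjusted p = 0.00343), the coactivator Ppargc1a (1.63 ± 0.32, adjusted p = 0.00294) and Hnf4g, a nuclear receptor of the enterocyte lineage (4.44 ± 0.47, adjusted p = 5.64e-05). Rxra did not pass under scaling by library size alone or among the libraries of high mitochondrial share. The 5 genes whose log2 CPM followed that of Ppara most closely over the 8 libraries, of 7812 compared, were Stoml2 (Pearson r = 0.959), Glo1 (0.950), Cgrrf1 (0.949), Lgalsl (0.942) and Hat1 (0.938). The 8 points share their libraries, depths and tissues, and none of the 5 genes passed the SI against COL test.

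Acsl5 (ENSMUSG00000024981, chr19:55251938-55297720, plus strand) codes for an acyl-CoA synthetase that activates long-chain fatty acids and is abundant in enterocytes. It stood at 6019, 3740, 4398 and 5672 CPM in SI1 to SI4 and at 45.6, 50.8, 76.0 and 85.0 CPM in COL1 to COL4. The lowest SI library lay far above the highest COL library, and within SI the libraries of mice 1 and 5 were the higher ones. On the log2 scale SI exceeded COL by 6.27 ± 0.56, with a 95% interval of 5.05 to 7.49 (edgeR, adjusted p = 2.05e-05). This difference was 6.18 among the libraries of low and 6.39 among those of high mitochondrial share. Zdhhc6 overlaps 8.31% of the exon bases of Acsl5 on the opposite strand and had 317 to 1412 counts in the libraries, against 817 to 4059 counts of Acsl5 in COL. Whether counting used the strand is not given in the sources used here, so reads from the shared stretch cannot be assigned to 1 of the 2 genes.

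The makeup of the family of long-chain synthetases differed between the tissues. Per length, Acsl5 made up 98.9% of the family in SI and 41.6% in COL, where Acsl3, a synthetase of the endoplasmic reticulum and lipid droplets, made up 46.6%. In COL the levels of Acsl3 (14.8 CPM per kb) and Acsl5 (13.2 ± 3.93, SD, n = 4) lay within 1 SD of each other. Acsl3 was higher in COL with 52.5 to 82.4 CPM against 3.20 to 12.9 CPM in SI (log2 fold change -3.00 ± 0.45, adjusted p = 0.000508), and so was Acsl4, which prefers arachidonic acid (-1.94 ± 0.56, adjusted p = 0.0239). The Acsl4 call was lost without COL1 or without COL3 and among the libraries of high mitochondrial share. Acsl1, a PPAR-alpha target known from liver and fat, was higher in SI (2.40 ± 0.25, adjusted p = 4.41e-05).

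Fatty acid uptake and activation as a whole split by member and not in 1 direction. Of 19 tested genes, 9 were higher in SI, 7 were higher in COL and 3 did not pass, with a median log2 fold change of -0.35. The share called was 84.2%, against 28.4% of all genes tested. Those higher in SI included Fabp1 and Fabp2, which carry fatty acids through the cytosol, with log2 fold changes of 10.77 ± 1.31 (adjusted p = 0.000124) and 5.22 ± 0.83 (adjusted p = 0.000732), and Cd36, a fatty acid transporter with 96.4 to 410.2 CPM in SI, while no COL library held more than 10 counts of it. In COL the list held Acsm3, a synthetase for medium-chain acids (-4.42 ± 0.45, adjusted p = 4.11e-05), and Acss2, which activates acetate (-2.12 ± 0.26, adjusted p = 0.00012).

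Cpt1a (ENSMUSG00000024900, chr19:3322334-3385733, plus strand) codes for the enzyme that commits long-chain fatty acids to mitochondrial oxidation. It stood at 56.2, 46.2, 88.4 and 117.5 CPM in SI1 to SI4 and at 92.9, 79.1, 242.7 and 266.8 CPM in COL1 to COL4. SI4 lay above COL1 and COL2, so the tissues overlapped, but COL was higher than SI in each of the 4 mice, by 0.72 to 1.46 on the log2 scale. The fit without the donor gave -1.15 ± 0.46 (edgeR, adjusted p = 0.087), and the fit in which each mouse was a block gave -1.04 (adjusted p = 0.0299). With the block 28.1% of all genes and 5 of the 9 passed, the same 4 and Cpt1a. The difference was -1.65 among the libraries of low mitochondrial share and -0.42 among those of high share. Without COL2 the adjusted p was 0.0416. Cpt1a was the only member of its family that passed the filter on low counts, making up 98.8% of the counted family level per length in SI and 99.2% in COL. The counts of Cpt1b cannot be told apart from those of Gm44502, which shares 93.0% of its 50-base stretches. The level of Cpt1b, and with it these shares, is therefore uncertain.

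Relative to Acsl5, the step before it, Cpt1a was low in every SI library. Their ratio per length, which does not depend on the scaling between libraries, was 0.00594 to 0.0132 in SI and 0.992 to 2.03 in COL. Of 7 tested genes of the carnitine shuttle, Crat (3.00 ± 0.40, adjusted p = 0.000224), the carnitine acetyltransferase, and Slc22a5 (2.57 ± 0.43, adjusted p = 0.00106), the plasma membrane carnitine transporter, were higher in SI. Slc25a29, a mitochondrial carrier of basic amino acids that has also been linked to acylcarnitine transport, was higher in COL on low counts (-3.41 ± 0.93, adjusted p = 0.0174), which was lost without COL1 and among the libraries of low or of high mitochondrial share alone. Without the donor block 42.9% of the tested shuttle genes were called, against 28.4% of all genes tested. With the donor block 3 genes were higher in SI and 2 in COL. The gene that joined in SI was Cpt2, the partner enzyme on the inner membrane, with a log2 fold change of 1.37 and an adjusted p of 0.0418, against 1.21 and 0.0714 without the block. Outer and inner carnitine palmitoyltransferase thus lay on opposite sides of 0.

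Acadl (ENSMUSG00000026003, chr1:66830839-66863277, minus strand), the long-chain acyl-CoA dehydrogenase, stood at 23.7, 9.43, 38.9 and 23.6 CPM in SI and at 33.3, 29.6, 40.2 and 45.4 CPM in COL. SI2 was the lowest library and SI3 lay among the COL libraries. Its log2 fold change, -0.64 ± 0.37 (edgeR, adjusted p = 0.231), was negative in each of the 4 mice, and the interval reached from -1.45 to 0.18.

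Acadm (ENSMUSG00000062908, chr3:153922357-153944632, minus strand), the medium-chain acyl-CoA dehydrogenase, stood at 261.4, 172.4, 174.0 and 225.2 CPM in SI and at 65.7, 58.7, 141.1 and 107.1 CPM in COL. All 4 SI libraries lay above all 4 COL libraries. The difference was 1.16 ± 0.34 on the log2 scale (edgeR, adjusted p = 0.0263), and it was 0.98 among the libraries of low and 1.48 among those of high mitochondrial share. The call was lost without SI1 (adjusted p = 0.0741), without SI4 (0.068) and without COL1 (0.0816), and under scaling by library size alone, where the log2 fold change was 0.38. A pseudogene, Gm5131, shares 4.10% of the 50-base stretches of Acadm.

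Hadha (ENSMUSG00000025745, chr5:30118304-30155162, minus strand) codes for the alpha subunit of the trifunctional protein, which carries out the later steps on long chains. It stood at 455.4, 300.4, 316.7 and 435.2 CPM in SI and at 158.0, 166.0, 285.8 and 299.7 CPM in COL. SI2 lay barely above COL4, so that the tissues did not overlap by a margin of under 1 CPM. With 0.73 ± 0.34 on the log2 scale it did not pass edgeR's test (adjusted p = 0.136). Its partner subunit Hadhb had 1.00 ± 0.45 with an adjusted p of 0.117. With Acsl5, Ehhadh and Acadm, Hadha was 1 of 4 genes of the 9 without overlap between the tissues, against 33.5% of all genes tested.

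The acyl-CoA dehydrogenases therefore did not share a direction. Acads, the short-chain enzyme, was higher in COL with 126.1, 52.0, 270.2 and 206.8 CPM against 49.5, 28.6, 49.2 and 66.8 CPM in SI, COL2 alone lying within the SI range. The log2 fold change was -1.76 ± 0.47 (adjusted p = 0.0159), and Acads did not pass among the libraries of high mitochondrial share. Acadvl, the very-long-chain enzyme, had 0.82 ± 0.48 with an adjusted p of 0.233, and 24.0% of its 50-base stretches are shared with the neighbouring Dvl2. Acad11, which acts on longer chains, was higher in SI (1.93 ± 0.37, adjusted p = 0.0024). Acads made up 11.2% of the family per length in SI and 42.5% in COL, while Acadm made up 28.0% and 14.0%. In COL the mean of Acads was the highest of the family, but Acads (72.2 ± 41.9 CPM per kb, SD, n = 4) and Acadvl (45.2 ± 30.1) lay within 1 SD of each other. The ratio of Acadm to Acadl per length was 2.29 to 9.37 in SI and 1.01 to 1.80 in COL. 

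Of all 20 genes of mitochondrial beta-oxidation, 5 were higher in SI, 1 (Acads) was higher in COL and 14 did not pass, a share called of 30.0% that is close to the background. Among those higher in SI, the largest difference was that of Hadh, the short- and medium-chain 3-hydroxyacyl-CoA dehydrogenase (2.29 ± 0.49, adjusted p = 0.0046), followed by Acad11 and by Decr1, the mitochondrial dienoyl-CoA reductase (1.32 ± 0.26, adjusted p = 0.00284), which did not pass under scaling by library size alone.

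**Figure D2:**
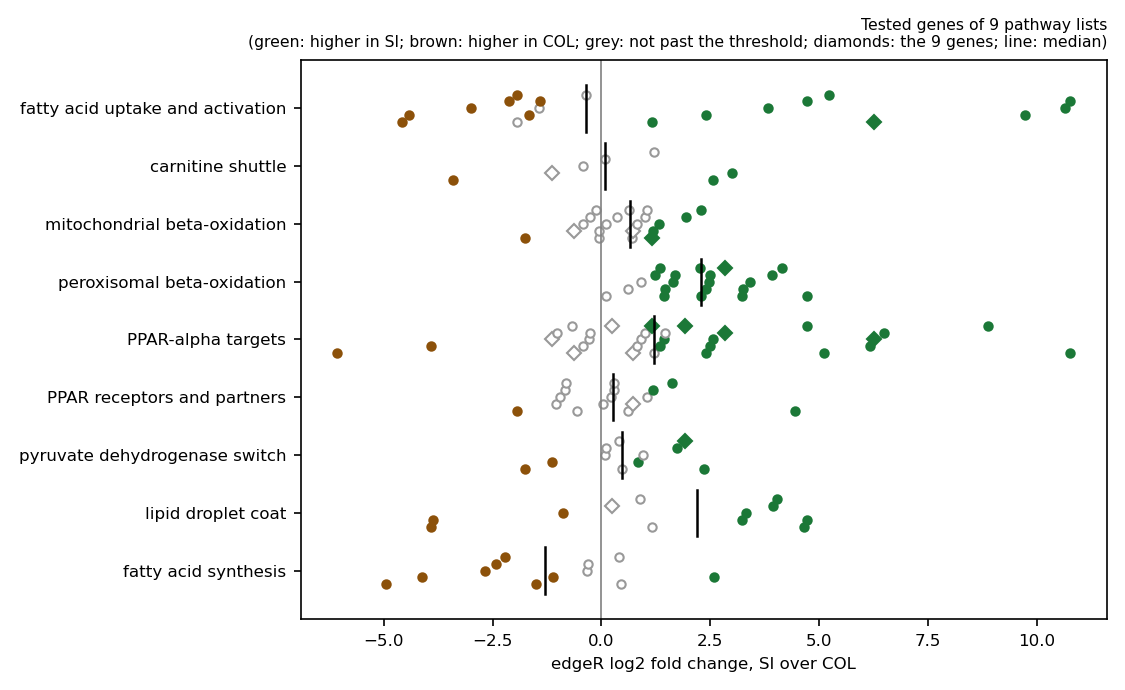
Log2 fold change, SI over COL, from edgeR (x axis) for each tested gene of 9 pathway lists (rows). Green marks genes higher in SI, brown genes higher in COL and grey open points genes that did not pass, diamonds are the 9 genes described here, and the black line is the list median. The peroxisomal list lies to the right of 0, with a median of 2.29 and 18 of 21 genes higher in SI, while the mitochondrial list has a median of 0.67 and 5 of 20, and fatty acid synthesis a median of -1.31 and 1 of 12. Of all genes tested, 15.5% were higher in SI.

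Ehhadh (ENSMUSG00000022853, chr16:21761287-21787807, minus strand) codes for the peroxisomal bifunctional enzyme, a classical PPAR-alpha target in liver. It stood at 301.5, 156.7, 217.0 and 298.6 CPM in SI and at 25.4, 11.4, 56.4 and 43.8 CPM in COL. The lowest SI library was above the highest COL library, with no overlap. SI exceeded COL by 2.83 ± 0.48 on the log2 scale, with an interval of 1.78 to 3.88 (edgeR, adjusted p = 0.00115), and the difference was 2.59 among the libraries of low and 3.43 among those of high mitochondrial share. Relative to Hadha, which carries out the like steps in mitochondria, Ehhadh had a ratio per length of 1.53 to 2.01 in SI and 0.201 to 0.578 in COL. Divided by the longest transcript instead of merged exons, Hadha (93.8 CPM per kb) lay above Ehhadh (81.7) in SI.

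Of the 21 peroxisomal genes tested, Ehhadh included, 18 were higher in SI, none was higher in COL and 3 did not pass, with a median log2 fold change of 2.29. The share called was 85.7%, against 28.4% of all genes tested. Slc27a2, which brings very long chains into the pathway (4.72 ± 0.39, adjusted p = 1.52e-05), and the isomerase Eci3 (3.93 ± 0.44, adjusted p = 7.11e-05) were among the largest differences of the list. The carnitine octanoyltransferase Crot, which prepares shortened chains for export from the peroxisome, had 3.41 ± 0.45, and the thiolase and lipid carrier gene Scp2 had 3.26 ± 0.52. Hsd17b4, which codes for the other bifunctional enzyme, was named after its values were seen and had 2.47 ± 0.47 (adjusted p = 0.0024). Under scaling by library size alone, 11 genes of the list passed.

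Pdk4 (ENSMUSG00000019577, chr6:5483351-5496309, minus strand) codes for a kinase that shuts off pyruvate dehydrogenase and so favours fat over glucose as fuel. It stood at 32.0, 17.7, 14.95 and 43.7 CPM in SI and at 1.41, 2.86, 8.02 and 16.3 CPM in COL. COL4 lay above SI3, and SI was higher in each of the 4 mice. EdgeR gave a log2 fold change of 1.91 ± 0.66 (adjusted p = 0.0492), or 2.29 (adjusted p = 0.0169) with the donor block. The call was lost when SI1, SI3, SI4, COL1, COL2 or COL3 was left out, with adjusted p-values of 0.0528 to 0.121, and under scaling by library size alone. In COL it varied most of the 9 genes on the log2 scale, the libraries of low mitochondrial share averaging 5.70 times those of high share.

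The kinase with the highest level was another one. Pdk2 had 145.2 to 249.9 CPM in SI and 28.0 to 44.8 CPM in COL (log2 fold change 2.35 ± 0.29, adjusted p = 0.000151) and made up 76.2% of the family per length in SI and 55.0% in COL, whereas Pdk4 made up 10.3% and 10.03%. In single libraries the share of Pdk4 ran from 7.13% to 16.6% in SI and from 2.70% (COL1) to 20.05% (COL4) in COL. Pdk1, a target of hypoxia signalling, was higher in COL (-1.15 ± 0.36, adjusted p = 0.0345), a call lost without SI1, SI4, COL2, COL3 or COL4. Pdk3 (0.84 ± 0.28, adjusted p = 0.0449) kept its call in 1 of the 8 fits that left out a library, the one without COL3. Of the phosphatases that oppose the kinases, Pdp2 was higher in SI (1.73 ± 0.28, adjusted p = 0.000905) and Pdp1 in COL (-1.76 ± 0.44, adjusted p = 0.0113), and none of the 5 subunit genes of the complex passed. Pdp1 did not pass among the libraries of high mitochondrial share. In all, 4 of 11 genes were higher in SI and 2 in COL, or 54.5% called against 28.4% of all genes tested.

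Plin2 (ENSMUSG00000028494, chr4:86648386-86670060, minus strand) codes for a coat protein of lipid droplets. It stood at 123.1, 121.3, 89.2 and 160.3 CPM in SI and at 38.0, 113.6, 118.8 and 147.3 CPM in COL. COL1 was the lowest library, and the other 3 COL libraries lay within the SI range. Its log2 fold change was 0.24 ± 0.39 with an interval of -0.61 to 1.10 (edgeR, adjusted p = 0.688), and without COL1 it was -0.031. Plin2 was higher in SI in 3 of 4 mice, donor mouse 3 being the exception, and it was the only gene of the 9 whose direction differed between mice. Its log2 difference was 1.69 in donor mouse 1 and -0.41 in donor mouse 3, the mice whose SI and COL libraries differed in mitochondrial share. The part of the share in this was not tested.

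Its relative Plin3, which coats nascent droplets, was higher in SI, with 531.8 to 1511 CPM in SI and 52.9 to 137.4 CPM in COL (log2 fold change 3.22 ± 0.49, adjusted p = 0.000607). Per length, Plin2 made up 12.5% of the perilipins in SI and 52.4% in COL, and Plin1, Plin4 and Plin5 were under the filter on low counts. Of 12 tested genes of lipid droplets and triglyceride turnover, 75.0% passed, against 28.4% of all genes tested. Higher in SI were 6 and in COL 3, with a median of 2.19 over the list. The 6 included Dgat1, which makes triglyceride (4.65 ± 0.31, adjusted p = 6.51e-06), the droplet proteins Cidec (4.71 ± 0.81, adjusted p = 0.00129) and Cideb (3.94 ± 0.44, adjusted p = 7.54e-05) and the lipase gene Lipe (4.03 ± 0.33, adjusted p = 1.53e-05). Mgll, the monoglyceride lipase (-3.92 ± 0.31, adjusted p = 1.29e-05), and Hilpda, an inhibitor of triglyceride breakdown induced by hypoxia (-3.88 ± 0.73, adjusted p = 0.00217), were higher in COL. The Hilpda call was lost among the libraries of high mitochondrial share. Of the 7 adipocyte markers, 5 had at most 3 counts in every library, and Adipoq had 0 in all. Lipe is also 1 of the 7 and carried their sum, with 115.2 to 191.5 CPM in SI and 5.57 to 10.3 CPM in COL, and the part of fat cells in these differences was not tested.

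**Figure D3:**
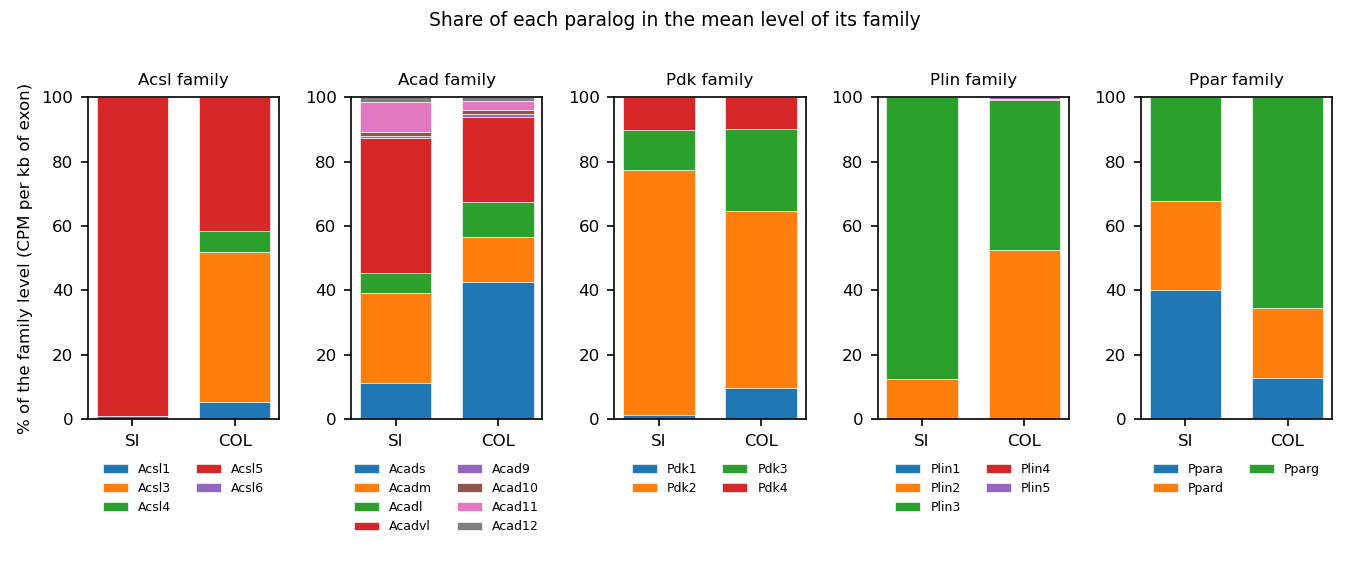
Share of each paralog (colours) in the summed mean level of its family, in percent of CPM per kb of exon (y axis), for SI and COL crypts (bars) and 5 families. Acsl5 makes up 98.9% in SI and 41.6% in COL, Acads goes from 11.2% to 42.5%, Plin2 from 12.5% to 52.4% and Pparg from 32.2% to 65.4%. Pdk4 makes up 10.3% and 10.03% of these means, but 2.70% to 20.05% in single COL libraries.

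Of the wider set of 31 tested PPAR-alpha targets, which holds 8 of the 9 genes, 54.8% passed, against 28.4% of all genes tested. Of the 31, 15 were higher in SI, 2 were higher in COL and 14 did not pass, with a median log2 fold change of 1.21. Creb3l3, a transcription factor of lipid metabolism (6.48 ± 0.57, adjusted p = 1.86e-05), and Vnn1, a pantetheinase (6.18 ± 0.96, adjusted p = 0.000643), were among the largest. Mgll, described above with the lipid droplet genes, was among the 2 that lay the other way, so the targets of the receptor did not share a direction. Of the tested genes of fatty acid synthesis 66.7% passed, against 28.4% of all genes tested. They lay mostly on the COL side, 7 of 12 against 1 of 12 in SI. They were led by the desaturases Scd2 (-4.95 ± 0.42, adjusted p = 1.62e-05) and Scd1 (-4.11 ± 0.83, adjusted p = 0.00337), Fasn (-2.67 ± 0.40, adjusted p = 0.000508) and Acly (-2.41 ± 0.30, adjusted p = 0.000146), while Mlxipl, which codes for the carbohydrate response factor ChREBP, was higher in SI (2.59 ± 0.38, adjusted p = 0.000463). The Scd1 call was lost among the libraries of high mitochondrial share.

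**Figure D4:**
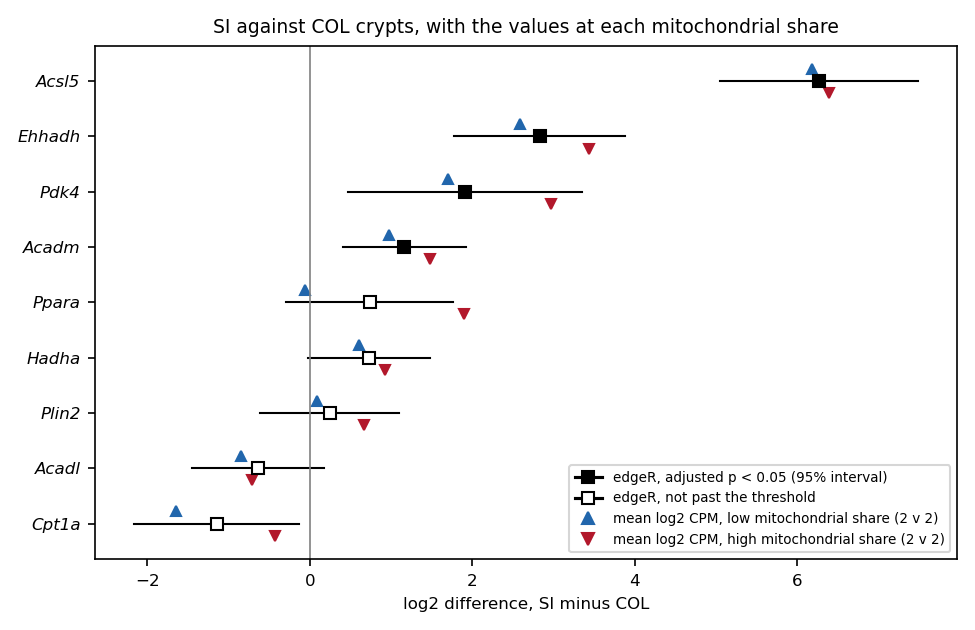
Log2 difference between SI and COL (x axis) for the 9 genes (y axis). Squares are edgeR log2 fold changes with 95% intervals, filled where the adjusted p was below 0.05, and triangles are differences in mean log2 CPM within the 4 libraries of low (blue, upward) and the 4 of high (red, downward) mitochondrial share, without a test. Ppara moves from -0.06 to 1.90 and Cpt1a from -1.65 to -0.42 between the low and the high share, and Acsl5 only from 6.18 to 6.39.

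Within a tissue, libraries of low mitochondrial share lay higher for most of the 9 genes, for all of them in COL and for 6 in SI. In COL, both libraries of low share (COL3 and COL4) lay above both of high share (COL1 and COL2) for 9 of the 9 genes, against 34.6% of all genes tested, by 1.36 times for Acadl to 5.70 times for Pdk4 in mean CPM. In SI, SI1 and SI4 lay above SI2 and SI3 for 6 of the 9, against 25.4% of all genes tested, the exceptions being Ppara, Cpt1a and Acadl. Plin2 was among the 6 by a narrow margin, with 123.1 CPM in SI1 and 121.3 CPM in SI2. The libraries of low and of high share were set apart by their measured share and not by the labels. Of the colonocyte markers, Car1 stood at 30000 and 15640 CPM in COL3 and COL4 against 5998 and 2632 CPM in COL1 and COL2 and carried most of their sum. Aqp4 and Ms4a8a split the same way, whereas Car4, Slc26a3, Aqp8 and Slc37a2 did not. COL2, of high share, was the highest COL library for Aqp8 (540.7 CPM), Slc26a3 (466.7 CPM) and Slc37a2 (75.2 CPM). The villus enterocyte markers summed to 120500 and 93420 CPM in SI1 and SI4 against 57920 and 53430 CPM in SI2 and SI3, mostly through Apoa1 and Anpep. Alpi, Sis and Slc5a1 did not split this way, while the other markers of the list did. Sis was highest in SI3 (3374 CPM) and Slc5a1 was lowest in SI1 (6143 CPM). Proliferation markers were lowest in SI1, with 104.7 CPM against 305.2 to 501.7 CPM in the other SI libraries, and none of the 8 passed the tissue test. The part of the share and of these markers in the differences between SI and COL was not tested.

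**Figure D5:**
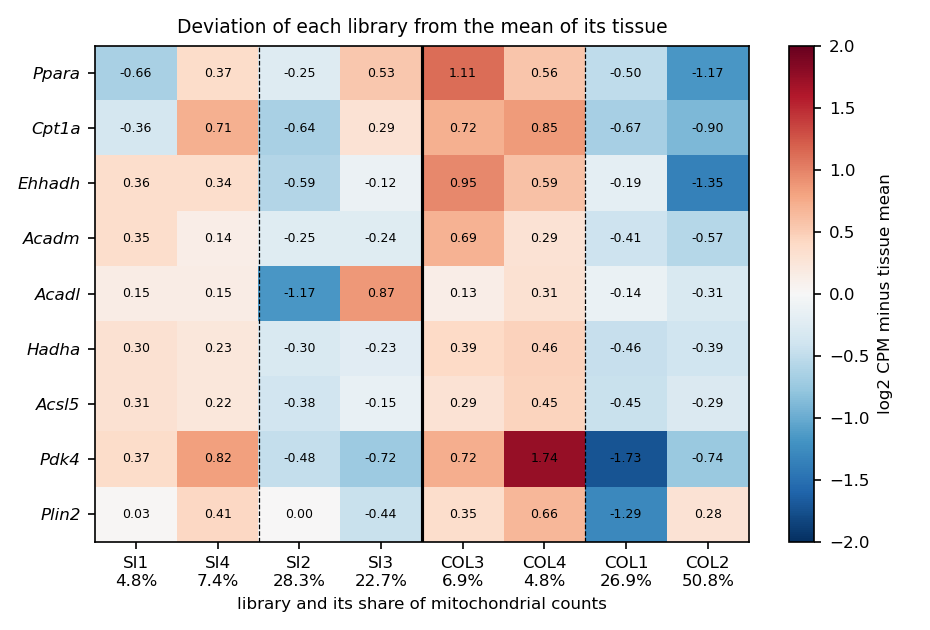
Deviation of each library from the mean log2 CPM of its tissue (colour and number) for the 9 genes (rows), with libraries ordered by tissue and, within it, those of low before those of high mitochondrial share (columns, share in percent under the name). In COL, Pdk4 ranges from -1.73 in COL1 to 1.74 in COL4, and in SI the largest deviation is that of Acadl in SI2, at -1.17.

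Levels of different genes were compared per kb of merged exon. In SI, Acsl5 stood apart at 1019 ± 220 (SD, n = 4) CPM per kb. Ehhadh followed at 81.7 ± 23.4, Acadm at 53.2 ± 11.0, Hadha at 43.2 ± 9.13 and Plin2 at 35.2 ± 8.28. Ehhadh lay more than 1 SD above Acadm, while Acadm, Hadha and Plin2 lay within 1 SD of their neighbours. Acadl, Cpt1a, Pdk4 and Ppara lay between 6.16 and 11.9 with overlapping SDs. In COL no gene stood apart. Plin2 was highest at 29.7 ± 13.3 and was followed by Hadha at 26.0 ± 8.68, Acadm at 23.8 ± 9.83, Cpt1a at 22.3 ± 12.8, Acadl at 18.5 ± 3.504, Acsl5 at 13.2 ± 3.93 and Ehhadh at 11.5 ± 6.66, an order in which only Acadl and Acsl5, among neighbours, differed by more than 1 SD. Ppara at 3.69 and Pdk4 at 2.04 were lowest. Divided by the longest transcript instead of all merged exons, Acadm (101.7) and Hadha (93.8) lay above Ehhadh (81.7) in SI, and in COL Hadha (56.6) lay above Plin2 (55.3), so that the order of genes close in level depends on the length used.

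The sexes were set side by side, with 2 mice each. In SI, mean Acsl5 was 5845 CPM in female and 4069 CPM in male mice, and mean Ehhadh was 300.1 and 186.8 CPM. The SI libraries of the female mice were also the 2 of low mitochondrial share, so that sex and share cannot be told apart in SI. In COL each sex gave 1 library of low and 1 of high share. There, mean Acsl5 was 65.3 and 63.4 CPM and mean Ehhadh 34.6 and 33.9 CPM. The difference between SI and COL had the same sign in both sexes for 8 of the 9 genes, Plin2 being the exception with 0.91 in female and -0.16 in male mice. A term for the difference in effect between the sexes, fitted in edgeR, gave an adjusted p of at least 0.963 for each of the 9 genes, with standard errors of 0.73 to 1.22 on the log2 scale.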

How the data were processed

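Total RNA of freshly isolated SI and COL crypts of 4 mice was sequenced by the authors as paired-end reads. Per the labels' processing notes, Trimmomatic 0.36 and STAR 2.5.2b were used and the builds mm9 and mm10 are listed, of which the study's methods name mm10. The annotation release and the strand setting are not given in the sources used here. The authors deposited unnormalized read counts per Ensembl gene, 1 column per library, and no column was left out. Tissue and donor mouse were taken from the labels. Symbols, coordinates and exon lengths came from GENCODE release vM21 on GRCm38, which is mm10. In it 563 of 45706 identifiers were not found. Promoter letters came from RefSeq (GRCm38.p6).

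SI was compared with COL by edgeR 4.0.16 (R 4.3.3; glmQLFit and glmQLFTest, TMM, filterByExpr by tissue) over 14491 genes with Benjamini-Hochberg adjustment at 0.05. The test was also run on simulated counts of independent libraries. These held no donor effect and no split by mitochondrial share, so they do not show how the test fares with either. Standard errors, given after ±, belong to the log2 fold change. Levels after ± carry an SD where so named. Log2 CPM used a prior count of 2. P-values measure the spread between these 4 mice per tissue, and the common dispersion was 0.245. The study's methods name limma for this comparison and no term for the donor, so the donor block was an alternative. SI and COL libraries of 1 number came from 1 animal, and the pairing rests on these labels. The correlation of their deviations from the tissue means was -0.24, 0.39, -0.08 and 0.33 for donors 1, 2, 3 and 5, against a mean of -0.03 between unlike mice. It was positive for donors 2 and 5, whose libraries were of like mitochondrial share, and negative for donors 1 and 3, whose libraries were not. The parts of animal and share in these values were not tested.

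The members and lists were chosen with earlier results of these data known. Named besides the 9 genes were, by rule, up to 5 of the largest differences per list and direction that passed, the members of their gene families, and the 5 genes most like Ppara. Hadhb, Cpt2, Hsd17b4, the ratios and the test of sex were added after values were seen. The alternatives were library size alone, DESeq2 1.42.0, limma 3.58.1 (voom), the donor block, no filter, at least 10 counts in every library, only libraries of mitochondrial share below 10% or above 20%, each library left out, another gene length and a prior count of 0.5. Some genes of the lists are counted but not reported singly here.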

Additional observations from a re-analysis of the deposited data

How the results depend on the processing

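Acsl5 and Ehhadh passed the test under each of the 16 alternatives, Acadm under 11 and Pdk4 under 9. Cpt1a, which did not pass in the fit as reported, passed under 6. With 1 library left out at a time, 2 to 4 of the 9 genes passed, with 2 left (Acsl5 and Ehhadh) without SI1, SI4 or COL1, and 3167 to 4480 genes in all. With the donor mouse as a replicate block, which uses the pairing of tissues within mice, 5 of the 9 passed and 4072 genes in all, and all 47 of the called genes named besides the 9 kept their call. Cpt1a and Cpt2 missed the threshold in the fit as reported and passed with the block, which ended no call of a named gene.

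The fits within 1 level of mitochondrial share held 2 libraries per tissue, the SI ones being from female mice at low share and from male mice at high share. Among the libraries of high mitochondrial share alone, 2264 genes passed instead of 4116. There Ppara passed at 1.84 on the log2 scale (adjusted p = 0.0351), and with low share alone 5530 passed, Cpt1a (-1.56) and Acadl (-0.86) among them. Scaling by library size alone moved the median of all genes from -0.09 to -0.82. It reversed Ppara to -0.040, Hadha to -0.047 and Plin2 to -0.49, none of which passed, ended the calls of Acadm and Pdk4 and gave calls for Cpt1a (-1.93) and Acadl (-1.40). Relative to the median gene, Ppara, Hadha and Plin2 stayed positive, at 0.78, 0.78 and 0.33. Leaving out 1 library at a time gave Plin2 values of -0.031 (without COL1) to 0.47. Without the filter Acadm missed the threshold (adjusted p = 0.0578) and Cpt1a passed it (0.0302). Counts of called list genes that moved by more than 1.5 times were those of the carnitine shuttle (5 instead of 3 with the block or DESeq2), mitochondrial beta-oxidation (10 instead of 6 at low share), peroxisomal beta-oxidation (11 instead of 18 by library size), receptors and partners (8 with DESeq2 and 9 by library size or at low share instead of 4), fatty acid synthesis (5 instead of 8 at high share) and the pyruvate dehydrogenase switch (3 instead of 6 without SI1, SI4 or COL2). The causes were not tested.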
